A study of Mus musculus with 6 samples.

Results

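The expression of 170 solute carrier genes was compared between libraries labelled CK2α-cKO and WT, both from sorted marginal zone B cells of the mouse spleen. The genes were taken by name. Every protein-coding gene whose symbol begins with Slc and a number was kept, except the mitochondrial Slc25 family, Slc3a2, the glucose carriers Slc2a1 and Slc2a3, and the lactate carriers Slc16a1 and Slc16a3. This gave the 170 genes, of 44 families among the 14864 genes in the table, out of 319 symbols that fit the rule in the annotation. The other 149 had no row and were not analysed here. All 170 passed the filter on low values. Of these, 3 carry the name but are not carriers (the adaptor Slc9a3r1, and the neighbours in name Slc4a1ap and Slc7a6os), and none of the 3 passed the test.

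Solute carriers are membrane proteins that move ions, metals, amino acids, sugars, nucleosides, vitamins and lipids across the plasma membrane and the membranes of organelles. They are grouped into families by sequence, and most work as uniporters, as cotransporters driven by an ion gradient or as exchangers. In B cells they are known for taking up the amino acids and nucleosides that growth needs, for setting cell volume and cytosolic chloride, and for carrying peptides, iron and zinc across endosomal and lysosomal membranes.

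The transcripts of these genes were followed in marginal zone B cells, the B cells at the border of the splenic white pulp that respond early to blood-borne antigen. Spleens came from C57BL/6 mice of 8 weeks. The 3 control libraries are labelled WT, and the 3 others come from mice with a conditional knockout, labelled cKO, of CK2α, the catalytic subunit of a constitutively active serine/threonine kinase that Csnk2a1 encodes. The sources used here do not give the Cre line, the floxed exons, the sort gates or the sex and number of mice. Nothing says that each library came from its own mouse, so the p-values measure only how these libraries vary, and that variation may be technical.

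The libraries held 18778776 to 23503756 recovered reads. Values are given below as normalised reads, that is read counts divided by the authors' factor for each library, and ± after a mean is the SD over 3 libraries. Csnk2a1 itself stood at 4069, 3861 and 3939 in the WT libraries (replicates 1, 2 and 3, an order kept throughout) and at 4124, 3951 and 4060 in the cKO libraries (log2 difference 0.03 ± 0.05 SE, limma adjusted p = 0.734). Such a count covers the whole gene and cannot see the loss of single exons, so it is no check of the labels. The 5 general B cell markers were high in every library, at a summed 136101 to 149065. Of 9 marginal zone B markers 5 rose and of 7 follicular B markers 3 fell, where 5.08% of all genes rose and 4.97% fell. Both lists were chosen with earlier results of these data known, so these shares are no test. The other 4 marginal zone markers did not pass. Notch2 and S1pr3 lay below 0 (log2 difference -0.11 and -0.06), and Cr2 and Dtx1 lay above (0.07 and 0.24). Within cKO, replicate 2 was nearest to WT in both sums, with 129386 for the marginal zone markers against 126607 to 134300 in WT, and 159910 and 156631 in cKO replicates 1 and 3. The largest part of that sum was Cr2, which did not pass the test and stood at 59691 in cKO replicate 2 (WT mean 65812). Each of the 5 markers that rose was above every WT library in cKO replicate 2 too, as Asb2 was at 2771 against 1425 to 1717. In bulk RNA, fewer cells of a type and less RNA per cell cannot be told apart. Erythroid markers were highest in WT replicate 2 (summed value 11147) and cKO replicate 1 (5059), against 702 to 1419 in the other 4 libraries. T cell markers, of which 3 of 10 were in the table, summed to 627 to 723 in WT and 321 to 462 in cKO, nearly all of it Lck, which fell. Plasma cell markers (5 of 6 in the table) summed to 9243 to 13617 in WT and 7390 to 8895 in cKO. Nearly all of this was Irf4, which fell, and Xbp1, which did not pass (limma adjusted p = 0.721). Jchain, Prdm1 and Sdc1 did not pass either. Of 5 dendritic cell markers in the table Zbtb46 rose (log2 difference 0.95, limma adjusted p = 0.0252) and 4 did not pass. The part of these differences in the solute carrier values was not tested.

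The solute carrier genes as a whole differed little between the genotypes, and a small number changed strongly. In all, 15 of 170 passed the limma test with a Benjamini-Hochberg adjusted p under 0.05, which is 8.82% against 10.1% of all 14855 genes tested. Of these, 4 were higher in cKO (2.35% of the solute carrier genes, against 5.08% of all genes) and 11 were lower (6.47%, against 4.97%). The largest increases by far were those of Slc12a5, a potassium-chloride cotransporter best known from neurons, and Slc5a5, the thyroid iodide symporter. The largest decrease past the threshold was that of the magnesium transporter Slc41a2.

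The median log2 difference was -0.04 for the solute carrier genes and 0.00 for all genes tested. Below 0 lay 103 of the 170, or 60.6%, against 50.2% of all genes. The size of the difference was under 0.25 in 121 and under 0.5 in 152 of the 170, and it was at least 1 in 5. For 101 genes the 95% interval of the log2 difference lay inside ±0.5. The 3 values of one genotype did not overlap those of the other for 57 genes (33.5%, against 31.6% of all genes). Of these, 15 were higher in cKO (8.82%, against 15.9%) and 42 were lower (24.7%, against 15.6%). An unadjusted p under 0.05 was reached by 51 genes (30.0%, against 26.8% of all genes).

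**Figure D1:**
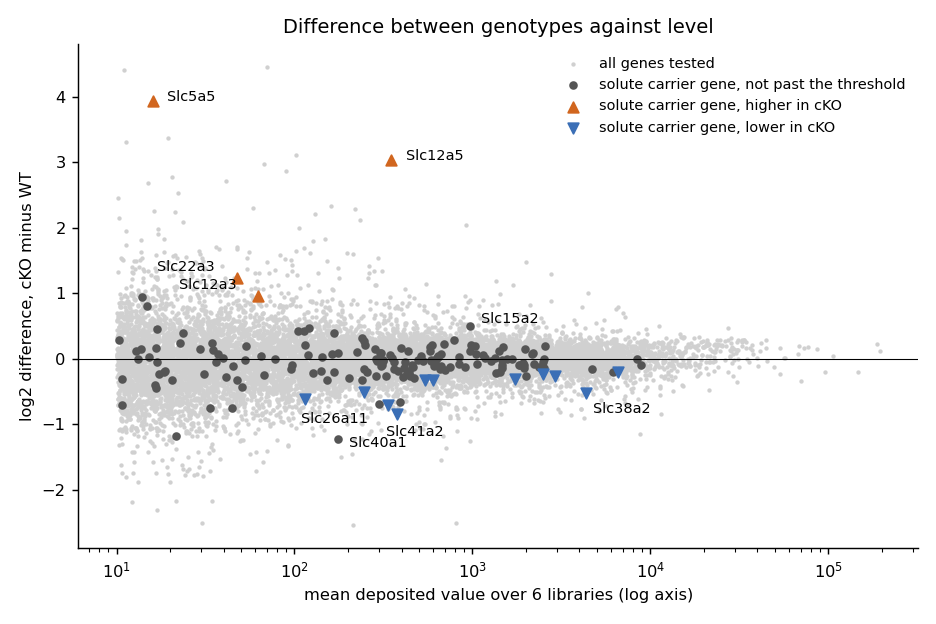
Log2 difference (cKO minus WT, y axis) against the mean deposited value over the 6 libraries (x axis, log scale) for the 170 solute carrier genes over all genes tested in grey. Slc5a5 and Slc12a5 stand far above 0, at 3.93 and 3.04, and the 11 genes that fell lie below 0, down to -0.85.

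The genes that rose were low in WT and those that fell were not. The 4 that rose had WT means of 1.42 to 72.3, and the 11 that fell had WT means of at least 139. The lowest of these, Slc5a5, met the filter on a mean of at least 10 only through its cKO libraries. A gene that enters in this way can only be called higher in cKO, so its place in this split was fixed beforehand. Split by the mean over the 6 libraries at 100 and 1000, limits chosen after the values were seen, the 44 lowest genes held 3 that rose and none that fell, where 139 rose and 96 fell of all 4664 genes of that range. The 86 in between held 1 that rose and 6 that fell, against 278 and 318 of 5631. Of the 40 highest none rose, 5 fell and 28 (70.0%) lay below 0, whereas 338 rose and 325 fell of all 4560 genes of that range and 47.3% lay below 0. Together the 170 genes took 0.700%, 0.673% and 0.687% of the deposited total in the WT libraries against 0.652%, 0.635% and 0.641% in the cKO libraries. The ranges did not overlap.

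The cation-chloride cotransporters of the Slc12 family set the chloride content and volume of cells. Slc12a5 (ENSMUSG00000017740, chromosome 2) encodes KCC2, which extrudes chloride together with potassium and is the basis of inhibitory GABA responses in mature neurons. It stood at 73.6, 63.2 and 80.2 normalised reads in WT and at 850, 407 and 626 in cKO. Every cKO library lay far above every WT library. The means were 72.3 ± 8.56 in WT and 628 ± 221 in cKO, a ratio of 8.68 (log2 difference 3.04 ± 0.22 SE, limma adjusted p = 0.000109). The spread within cKO ran in the same order as the marginal zone marker sum, lowest in replicate 2 and highest in replicate 1. Cr2 is the largest part of that sum, and the part of the one in the other was not tested. Its nearest genes in the table were the gelatinase gene Mmp9, at 9.89 ± 4.88 in WT and 28.8 ± 12.8 in cKO (adjusted p = 0.078), and the nuclear receptor coactivator gene Ncoa5, with a log2 difference of -0.02 (adjusted p = 0.891).

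Slc12a3 (ENSMUSG00000031766, chromosome 8), the thiazide-sensitive sodium-chloride cotransporter of the distal kidney tubule, also rose. Its values were 38.4, 49.5 and 39.1 in WT and 80.2, 77.7 and 89.8 in cKO. All 3 cKO libraries were higher than all 3 WT libraries, and the ratio of the means was 1.95 (log2 difference 0.95 ± 0.19 SE, limma adjusted p = 0.0151). The test was missed without WT replicate 1, WT replicate 3 or cKO replicate 3 (adjusted p = 0.058, 0.0605 and 0.0658).

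Slc12a2, Slc12a4, Slc12a7, Slc12a8 and Slc12a9 of the same family did not pass the test. Slc12a2, the sodium-potassium-chloride cotransporter NKCC1 that loads cells with chloride, had a log2 difference of -0.05 (95% interval -0.24 to 0.15). Slc12a4, which encodes KCC1, stood at -0.26 (-0.55 to 0.03), Slc12a7, which encodes KCC4, at -0.18 (-0.42 to 0.05), and Slc12a9 at -0.11 (-0.26 to 0.05). Slc12a8 was low in all libraries, with means of 12.7 ± 6.64 normalised reads in WT and 14.7 ± 7.95 in cKO. Per kilobase, Slc12a5 at 9.71 in WT was below Slc12a2, Slc12a4, Slc12a7 and Slc12a9, and at 84.3 in cKO it was above Slc12a2 (55.3) and Slc12a7 (28.3).

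**Figure D2:**
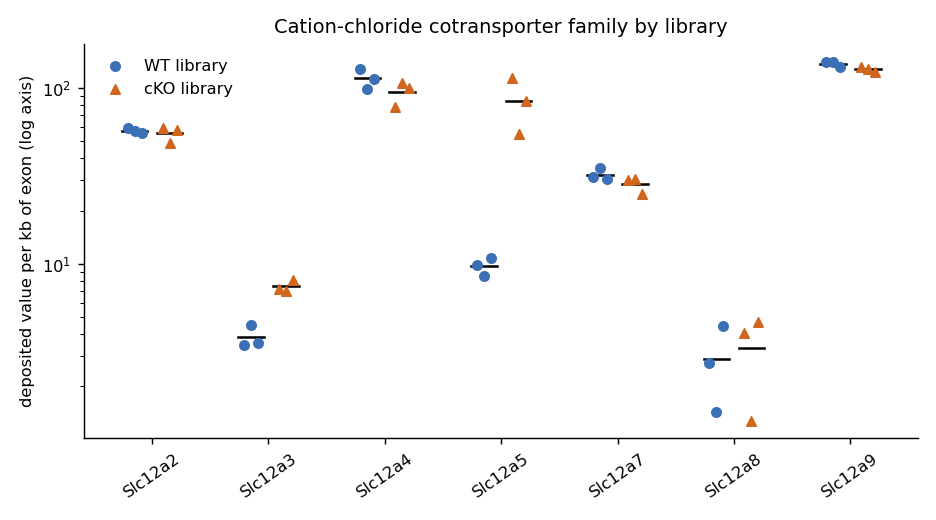
Normalised reads per kb of exon (y axis, log scale) in each library for 7 genes of the cation-chloride cotransporter family, with circles for WT, triangles for cKO and bars for the means of 3. Slc12a5 moved from a mean of 9.71 to 84.3 and Slc12a3 from 3.81 to 7.43, and the other 5 did not pass the test.

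These cotransporters are switched by the WNK kinases and their targets SPAK (Stk39) and OSR1 (Oxsr1), whose phosphorylation activates NKCC1 and inhibits the KCCs. Of 12 genes for these kinases and their regulators in the table, none rose and 1 fell, against 5.08% and 4.97% of all genes. That gene was Sgk1, a kinase that regulates ion channels and carriers, at 663, 506 and 698 in WT and 365, 404 and 499 in cKO (log2 difference -0.56 ± 0.14 SE, limma adjusted p = 0.0309). Wnk1 stood at 0.00 and Oxsr1 at -0.02 on the log2 scale, with adjusted p values of 0.985 and 0.884.

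Slc5a5 (ENSMUSG00000000792, chromosome 8) encodes the sodium-iodide symporter, NIS, by which the thyroid concentrates iodide. It was close to the floor in WT, at 1.10, 3.16 and 0 normalised reads, and it stood at 30.3, 26.5 and 35.1 in the cKO libraries. Each cKO library was far above the highest WT library. This rests on 4 recovered reads over the 3 WT libraries and 96 over the 3 cKO libraries, a ratio of 21.8 after library scaling with an exact 95% interval of 8.23 to 81.5 for counting error only. The fitted log2 difference was 3.93 ± 0.53 SE (limma adjusted p = 0.00214), and it ran from 2.5 to 4.46 over the alternative settings. At pseudocounts of 0.5 and 5 it was 4.44 and 2.5, and it was 4.44 without WT replicate 2 and 3.41 without WT replicate 3. The neighbouring coiled-coil gene Ccdc124 rose as well but by far less, with a log2 difference of 0.28 (adjusted p = 0.0494).

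Slc5a3, the sodium-coupled myo-inositol carrier that cells raise under osmotic stress, belongs to the same family and did not pass the limma test. It stood at 529, 308 and 281 in WT and 253, 199 and 213 in cKO, and its groups did not overlap (log2 difference -0.70 ± 0.20 SE, adjusted p = 0.0545). DESeq2 on the recovered reads put it past the threshold (adjusted p = 0.00318).

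Slc22a3 (ENSMUSG00000023828, chromosome 17) encodes OCT3, a low-affinity carrier of monoamines and other organic cations. Its values were 23.1, 19.0 and 44.0 in WT and 82.0, 47.4 and 69.1 in cKO. The highest WT library and the lowest cKO library were close, and the ratio of the means was 2.31 (log2 difference 1.23 ± 0.33 SE, limma adjusted p = 0.0392). Without WT replicate 1, WT replicate 2, cKO replicate 1 or cKO replicate 3 the adjusted p was 0.101 to 0.135. Of its exon bases 9.31% lie over those of Plg, a gene with no row in the table. Slc22a15, a carrier of zwitterions in the same family, stood at 47.2, 16.9 and 28.4 in WT and 9.81, 15.2 and 11.4 in cKO, and its log2 difference of -1.18 ± 0.39 SE missed the threshold (limma adjusted p = 0.078). Without WT replicate 2 it was -1.54 (adjusted p = 0.0376).

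The proximal promoters of the 4 genes that rose are shown because these genes were low or nearly silent in WT. The windows are those of RefSeq on GRCm38.p6 and run from 250 bases before to 50 bases after an annotated start, with each CG dinucleotide in capitals, where cytosines can be methylated. CG-rich promoters are typical of widely expressed genes and of many developmental and neuronal genes, and CG-poor ones of genes used in few tissues.
Slc12a5 window 1, chr2:164960596-164960895, plus strand: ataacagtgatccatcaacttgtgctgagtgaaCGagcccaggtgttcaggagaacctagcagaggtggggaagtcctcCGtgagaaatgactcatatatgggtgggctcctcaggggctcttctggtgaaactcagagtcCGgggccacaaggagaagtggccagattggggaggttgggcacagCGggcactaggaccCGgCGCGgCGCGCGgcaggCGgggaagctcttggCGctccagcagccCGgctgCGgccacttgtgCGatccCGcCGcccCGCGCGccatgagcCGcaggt
Slc12a5 window 2, chr2:164967738-164968037, plus strand: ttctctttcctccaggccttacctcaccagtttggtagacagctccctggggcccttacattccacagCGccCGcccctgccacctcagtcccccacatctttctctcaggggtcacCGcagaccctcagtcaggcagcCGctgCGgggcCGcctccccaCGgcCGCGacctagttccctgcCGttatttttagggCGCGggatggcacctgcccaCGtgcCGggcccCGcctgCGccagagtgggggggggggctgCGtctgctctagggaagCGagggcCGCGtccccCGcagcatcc
Slc5a5, chr8:70892708-70893007, minus strand: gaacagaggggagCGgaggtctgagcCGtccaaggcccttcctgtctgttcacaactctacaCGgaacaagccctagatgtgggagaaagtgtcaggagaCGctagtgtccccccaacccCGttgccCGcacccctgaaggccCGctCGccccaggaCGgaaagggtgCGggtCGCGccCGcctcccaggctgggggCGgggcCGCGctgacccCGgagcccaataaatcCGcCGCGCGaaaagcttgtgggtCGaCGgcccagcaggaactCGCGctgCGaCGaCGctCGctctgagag
Slc12a3, chr8:94328958-94329257, plus strand: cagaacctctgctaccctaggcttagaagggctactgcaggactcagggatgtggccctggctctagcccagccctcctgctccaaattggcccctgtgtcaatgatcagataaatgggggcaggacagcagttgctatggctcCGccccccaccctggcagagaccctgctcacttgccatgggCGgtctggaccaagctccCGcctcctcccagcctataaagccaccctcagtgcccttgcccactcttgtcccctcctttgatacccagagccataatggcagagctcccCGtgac
Slc22a3, chr17:12507655-12507954, minus strand: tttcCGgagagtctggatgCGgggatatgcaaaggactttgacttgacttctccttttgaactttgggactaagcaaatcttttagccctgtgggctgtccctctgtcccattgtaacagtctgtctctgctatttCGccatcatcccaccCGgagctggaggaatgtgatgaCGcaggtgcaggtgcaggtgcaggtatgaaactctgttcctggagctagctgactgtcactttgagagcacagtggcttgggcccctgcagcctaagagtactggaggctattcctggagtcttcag

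Slc5a5 had 29 CG dinucleotides and each of the 2 Slc12a5 windows had 21, whereas Slc22a3 had 5 and Slc12a3 had 4. The genes that rose were thus of both kinds. At least 15 were found in 34.6% of all 32851 RefSeq windows and in 55.9% of the 177 windows of solute carrier genes. Of the 12 windows of genes past the threshold 9 held as many, among them 6 of the 7 windows of the genes that fell. Those 7 windows belong to 6 of the 11 genes that fell, and the others had no window. The count was taken on the printed strand, and CG reads the same on both. The measure and the limit of 15 were chosen after the windows were seen, and no methylation was measured here.

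Among the genes that fell, Slc41a2 (ENSMUSG00000034591, chromosome 10) changed most. It belongs to a family of magnesium transporters of the plasma membrane and organelles. Its values were 494, 453 and 512 in WT and 291, 283 and 237 in cKO, so that every cKO library was well below every WT library. The mean went from 486 ± 30.0 to 270 ± 28.9 (log2 difference -0.85 ± 0.10 SE, limma adjusted p = 0.00111). Its 2 relatives moved less. Slc41a1, a sodium-magnesium exchanger of the plasma membrane, stood at 1529, 1375 and 1483 in WT and 1257, 1225 and 1294 in cKO, with a log2 difference of -0.22 ± 0.06 SE just outside the threshold (adjusted p = 0.0516, and 0.0445 without WT replicate 2). Slc41a3, which exports magnesium from mitochondria, had -0.25 ± 0.22 SE (adjusted p = 0.521).

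The Slc26 family exchanges sulfate, chloride, bicarbonate and oxalate, and 2 of its 6 members fell, against 4.97% of all genes. Slc26a11 (ENSMUSG00000039908, chromosome 11), a sodium-independent sulfate transporter found on lysosomes, stood at 445, 387 and 407 in WT and 248, 299 and 218 in cKO. The groups lay well apart (log2 difference -0.70 ± 0.12 SE, limma adjusted p = 0.00746). Slc26a2 (ENSMUSG00000034320, chromosome 18), the sulfate carrier whose loss in humans causes diastrophic dysplasia, stood at 660, 673 and 681 in WT and 538, 570 and 504 in cKO. The WT libraries differed by little and all cKO libraries were lower (log2 difference -0.32 ± 0.08 SE, limma adjusted p = 0.0239). Of the 6 fits that leave out 1 library, only the one without cKO replicate 2 kept this call, and the adjusted p was at most 0.0941 in the others. Slc26a1, a sulfate and oxalate carrier, had -0.75 ± 0.28 SE and the chloride-bicarbonate and oxalate exchanger Slc26a6 had 0.39 ± 0.16 SE, and neither passed (adjusted p = 0.115 and 0.151).

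Slc4a7 (ENSMUSG00000021733, chromosome 14), the electroneutral sodium-bicarbonate cotransporter NBCn1 that brings base into cells, stood at 3265, 3221 and 3081 in WT and 2592, 2831 and 2511 in cKO. No cKO library reached a WT library (log2 difference -0.27 ± 0.06 SE, limma adjusted p = 0.0198). It missed the threshold without WT replicate 1, WT replicate 3 or cKO replicate 3 (adjusted p = 0.0729, 0.0554 and 0.0852). Slc17a9 (ENSMUSG00000023393, chromosome 2), the vesicular nucleotide transporter that loads ATP into secretory vesicles, stood at 563, 673 and 582 in WT and 514, 490 and 439 in cKO. Its groups were apart but its call was the weakest of the 15 (log2 difference -0.33 ± 0.09 SE, limma adjusted p = 0.0493), and it was missed with each library left out (0.0506 to 0.166).

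Of the genes that fell, the amino acid carrier with the highest level was Slc38a2. Slc38a2 (ENSMUSG00000022462, chromosome 15) encodes SNAT2, a sodium-coupled carrier of small neutral amino acids that cells raise when amino acids are short or the medium is hypertonic. It stood at 5912, 4444 and 4999 in WT and at 3420, 3886 and 3312 in cKO. The WT libraries varied, yet the lowest of them was above the highest cKO library, and the mean went from 5118 ± 741 to 3539 ± 305 (log2 difference -0.53 ± 0.10 SE, limma adjusted p = 0.00928). Its promoter window held 41 CG dinucleotides, the most among the 12 windows of genes past the threshold, and is printed to set beside those above.
Slc38a2, chr15:96699679-96699978, minus strand: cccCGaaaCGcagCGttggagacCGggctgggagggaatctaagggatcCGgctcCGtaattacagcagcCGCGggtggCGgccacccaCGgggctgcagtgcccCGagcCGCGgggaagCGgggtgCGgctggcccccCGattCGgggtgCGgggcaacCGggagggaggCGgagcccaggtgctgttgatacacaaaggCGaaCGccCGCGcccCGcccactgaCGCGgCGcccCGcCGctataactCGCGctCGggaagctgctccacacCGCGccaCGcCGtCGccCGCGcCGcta

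Its neighbour Slc38a1, which encodes the related carrier SNAT1, had a log2 difference of -0.15 ± 0.07 SE and did not pass (limma adjusted p = 0.169). Slc1a5, the glutamine carrier ASCT2 and the most abundant amino acid carrier here at 1485 normalised reads per kb, stood at 6750, 6898 and 6225 in WT and 6029, 5843 and 5425 in cKO. Its groups did not overlap, but the log2 difference of -0.20 ± 0.06 SE missed the threshold in limma (adjusted p = 0.0603). DESeq2 on the recovered reads, rescaling without immunoglobulin genes and the replicate block gave adjusted p values of 0.0405, 0.0439 and 0.0341. With a library left out it was 0.0634 to 0.214. Of the 26 genes in families that carry amino acids, none rose and only Slc38a2 fell, and the median log2 difference was -0.03. Slc16a10 (ENSMUSG00000019838, chromosome 10) carries aromatic amino acids although its family is that of the monocarboxylate carriers. It stood at 318, 256 and 292 in WT and 203, 193 and 211 in cKO, with the groups apart (log2 difference -0.51 ± 0.11 SE, limma adjusted p = 0.0217). It missed the threshold without WT replicate 1, WT replicate 3 or cKO replicate 3 (adjusted p = 0.0912, 0.0823 and 0.0582).

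Amino acids are sensed at the lysosome by the Rag GTPases and their regulators. Of 22 genes of this machinery 1 rose and 2 fell, where 5.08% of all genes rose and 4.97% fell. Sesn1, of the sestrins that restrain mTORC1, had a log2 difference of 0.59 ± 0.10 SE (limma adjusted p = 0.00725). Flcn, a GTPase activator for RagC and RagD, had -0.29 ± 0.06 SE (adjusted p = 0.0163), and the Rag GTPase Rragb had -0.44 ± 0.12 SE (adjusted p = 0.0433).

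Slc15a4 (ENSMUSG00000029416, chromosome 5) is the lysosomal carrier of histidine and small peptides that B cells and dendritic cells need for signalling by the endosomal Toll-like receptors. It stood at 2779, 2634 and 2651 in WT and 2235, 2263 and 2368 in cKO. The 2 sets were tight and apart (log2 difference -0.23 ± 0.05 SE, limma adjusted p = 0.0232). Without WT replicate 1, WT replicate 3, cKO replicate 1 or cKO replicate 3 the adjusted p was 0.056 to 0.0819. Slc16a6 (ENSMUSG00000041920, chromosome 11), a monocarboxylate carrier that exports ketone bodies in the zebrafish liver, stood at 1880, 1871 and 1978 in WT and 1481, 1586 and 1566 in cKO. The groups lay apart by more than the spread in either (log2 difference -0.31 ± 0.06 SE, limma adjusted p = 0.01), and it missed the threshold without WT replicate 3 alone (adjusted p = 0.0562). Slc16a6 shares 21.5% of its exon bases with Amz2, whose log2 difference was 0.23 (adjusted p = 0.272). Slc35f5 (ENSMUSG00000026342, chromosome 1), a little-studied relative of the nucleotide sugar carriers, stood at 120, 161 and 135 in WT and 91.8, 83.4 and 94.9 in cKO. Its groups were apart (log2 difference -0.61 ± 0.16 SE, limma adjusted p = 0.0372), but the call was missed with each library left out (0.0591 to 0.111).

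**Figure D3:**
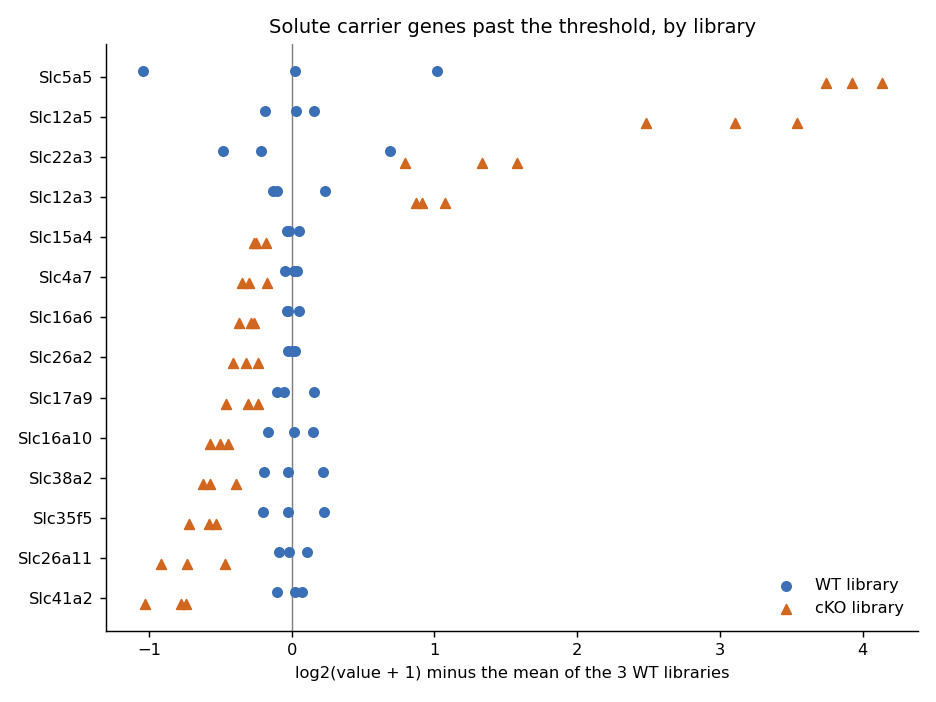
Values in each library for 14 of the 15 genes past the threshold, as log2(value + 1) minus the WT mean (x axis), with circles for WT and triangles for cKO. In each of the 14 genes the 3 circles and the 3 triangles do not overlap, and the 4 genes that rose stand at the top.

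In all 15 genes the values of the groups were apart, for which an exact two-sided permutation test of 3 against 3 gives p = 0.1, the smallest it allows. This adds no support, since limma picked the genes on the same values, and the groups were apart in 31.6% of all genes. Slc12a5, Slc5a5, Slc41a2, Slc26a11 and Slc38a2 passed in every alternative setting that tested them. The other 10 missed the threshold in at least 1.

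By substrate, each of the 7 classes into which the families were put held at least 1 gene past the threshold, where 5.08% of all genes were higher and 4.97% lower. The inorganic ion families, the largest class, held 2 of 37 genes that rose (Slc12a5 and Slc12a3) and 5 that fell (among them Slc26a11, Slc26a2, Slc4a7 and, by its family, the nucleotide carrier Slc17a9), at a median log2 difference of -0.11. Of 22 genes in the sugar and carboxylate families 1 rose and 2 fell, but the one that rose was the iodide carrier Slc5a5, and of those that fell Slc16a10 carries amino acids. Of 17 genes for lipids, organic ions and amines, Slc22a3 rose and none fell. Of 28 metal carriers, none rose and Slc41a2 fell, with a median of -0.10. Of 23 genes for nucleotide sugars and acetyl-CoA only Slc35f5 fell, and of 17 for peptides, nucleosides and vitamins only Slc15a4.

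**Figure D4:**
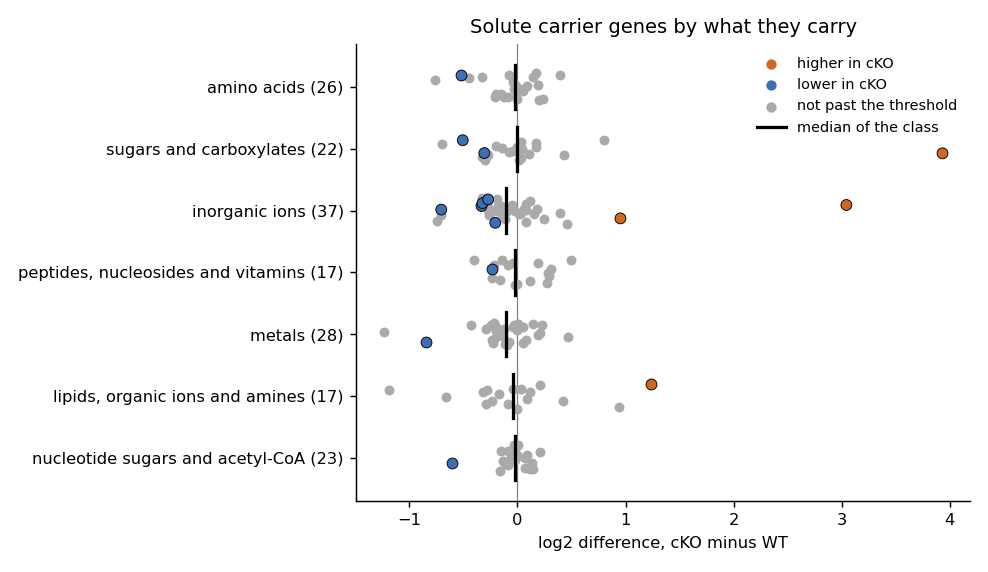
Log2 difference (cKO minus WT, x axis) of each solute carrier gene, by the class of substrate of its family with the number of genes in brackets, and the class median as a bar. All 7 medians lie between -0.11 and -0.01, and Slc5a5 and Slc12a5 stand apart at the right.

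The 5 solute carrier genes most abundant per kilobase did not pass the test. By value without regard to length, 5 of the 40 genes with a mean of at least 1000 fell. Per kilobase of exon the 170 genes ran from 0.571 to 2012 normalised reads with a median of 72.5, against a median of 115 for all genes. The top 5 (Slc28a2, Slc1a5, Slc50a1, Slc9a3r1 and Slc44a2) held 27.0% of the sum over the 170. Slc28a2, a sodium-coupled carrier of purine nucleosides, led at 2012 per kb, with 8574, 8150 and 8696 normalised reads in WT and 8743, 7885 and 8763 in cKO. These overlapped throughout, and the 95% interval of the log2 difference was -0.13 to 0.13. The same interval was -0.30 to 0.01 for Slc50a1, a sugar carrier of the SWEET type, -0.05 to 0.21 for Slc9a3r1, a scaffold for carriers at the membrane, and -0.21 to 0.03 for the choline transporter-like Slc44a2. Slc50a1 had a limma adjusted p of 0.222. Without cKO replicate 2 its log2 difference was -0.23 and it passed (adjusted p = 0.0326), but with any other library left out the adjusted p was 0.293 to 0.49.

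Zinc carriers showed no call. None of the 6 Slc30 genes, which move zinc out of the cytosol, and none of the 13 Slc39 genes, which move it in, passed limma. Of all genes tested 10.1% passed, 5.08% higher and 4.97% lower, which holds for the other lists below too. The leading members were Slc30a5, which fills the secretory pathway, with a log2 difference of -0.14 (95% interval -0.26 to -0.02, adjusted p = 0.138), and Slc39a1, of the plasma membrane, with 0.19 (0.02 to 0.36, adjusted p = 0.138). Mt1, a zinc-binding metallothionein, was low throughout and was the 1 of 3 zinc handling genes that rose (log2 difference 0.91 ± 0.19 SE, limma adjusted p = 0.0181). The other metallothionein gene in the list, Mt2, was lower still and had -0.33 (adjusted p = 0.600), and Mtf1 had 0.01 (adjusted p = 0.966). In the Slc35 family, which fills the Golgi with nucleotide sugars, 21 of 22 genes missed the threshold. The highest of them, Slc35c2, which acts in the fucosylation of Notch receptors, had a log2 difference of -0.06 (-0.20 to 0.07). Of 6 genes for chaperones and trafficking partners of carriers, 1 rose, Arl6ip5, whose product holds a glutamate carrier in the endoplasmic reticulum, with 0.21 ± 0.06 SE (limma adjusted p = 0.0415).

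A few solute carriers differed more between libraries of 1 genotype than between genotypes. Over genes with a mean of at least 100, the SD within groups of log2(value + 1) had a median of 0.104 for 126 solute carrier genes and 0.0959 for all 10191 genes. It was 1.62 for Slc4a1, 1.57 for Slc15a2 and 0.94 for Slc40a1, which stood 6th, 7th and 14th of the 10191.

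Slc15a2, which encodes the peptide carrier PEPT2, stood at 1807, 125 and 940 in WT and at 1821, 536 and 616 in cKO. The highest WT library was 14.4-fold above the lowest, and the groups overlapped fully. Slc4a1, the anion exchanger band 3 of red cells, stood at 150, 302 and 28.4 in WT and 349, 101 and 43.3 in cKO. It was highest in the same 2 libraries, WT replicate 2 and cKO replicate 1, as the erythroid marker sum, and Slc15a2 was not.

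Slc40a1, which encodes ferroportin, the iron exporter that macrophages use to return iron from red cells, stood at 152, 388 and 171 in WT and 223, 55.0 and 61.9 in cKO. The groups overlapped through cKO replicate 1 (log2 difference -1.23 ± 0.48 SE, limma adjusted p = 0.13). Without that library the log2 difference was -1.87 (adjusted p = 0.00825). With both libraries of high erythroid markers left out, WT replicate 2 and cKO replicate 1, it was -1.45 (adjusted p = 0.00345). Both settings leave out the library through which the groups overlapped, and they are quoted because the gene passed in them. They therefore add no support. The sum of 12 macrophage and monocyte markers, all in the table and none past the threshold, was 2061, 3269 and 2089 in WT and 3151, 1721 and 1870 in cKO, highest in the same 2 libraries. Of the 12, 7 lay below 0 and 5 above. Among the 7, Vcam1 stood at 247, 519 and 203 in WT and 468, 59.7 and 83.6 in cKO (log2 difference -1.15, limma adjusted p = 0.255). C1qb stood at 133, 277 and 112 in WT and 170, 60.6 and 72.2 in cKO (-0.82, adjusted p = 0.205). Both were picked after their values were seen, and both were highest in those 2 libraries. Slc11a1, a metal carrier of macrophage phagosomes, was highest there too, at 46.1, 72.7 and 51.8 in WT and 74.0, 31.3 and 29.9 in cKO. The part of other cells in the values of Slc4a1, Slc40a1 and Slc11a1 was not tested. Of 9 iron handling genes, the ferritin receptor gene Ncoa4 rose by 0.28 ± 0.06 SE on the log2 scale (limma adjusted p = 0.0221) and the ferritin heavy chain gene Fth1 fell by 0.20 ± 0.06 SE (adjusted p = 0.0495).

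**Figure D5:**
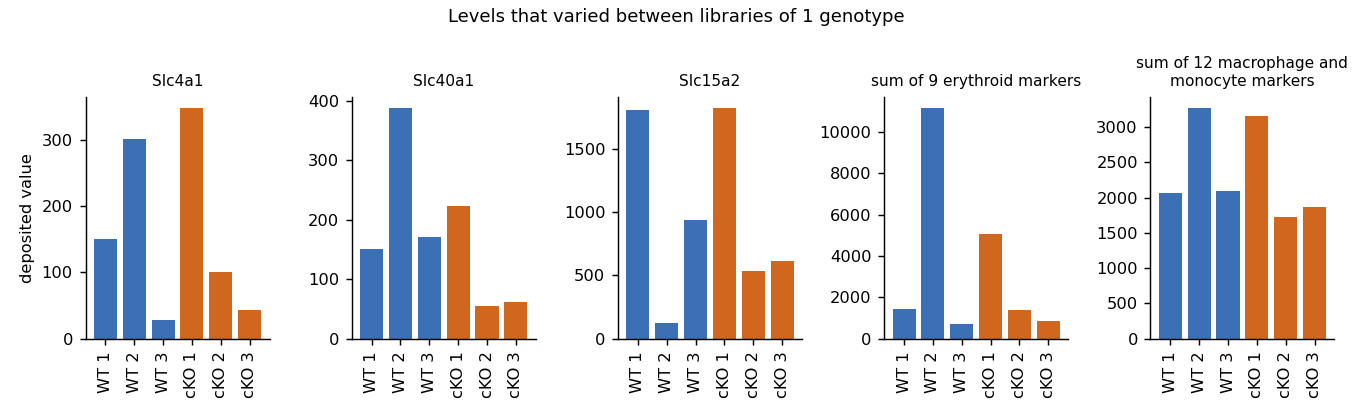
Deposited values (bars, y axes from 0) in the 3 WT and 3 cKO libraries for Slc4a1, Slc40a1 and Slc15a2 and for the summed erythroid and macrophage markers. Slc4a1, Slc40a1 and both marker sums are high in WT replicate 2 and cKO replicate 1, whereas Slc15a2 is lowest in WT replicate 2, at 125.

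Slc14a1, the urea transporter of red cells and endothelium, did not run with the erythroid markers. It stood at 398, 468 and 563 in WT and 196, 390 and 346 in cKO, with the groups apart and a log2 difference of -0.66 ± 0.22 SE that missed the threshold (limma adjusted p = 0.0822). Without cKO replicate 2 it was -0.85 (adjusted p = 0.0257).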

How the data were processed

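RNA-seq of 6 libraries was analysed, 3 per group by the genotype in the labels. The submitters' processing notes name the build mm9 and the programs STAR 2.5.2b, Trimmomatic 0.36 and bcl2fastq 2.17. The sources used here do not give the counter, annotation, strand setting or scaling. The deposited signal is read counts that the authors divided by a factor for each library: 100.0% of values in each library were whole reads within 0.02. Recovered reads were 18778776 to 23503756 per library, with at least 61 per gene. Symbols and exon lengths came from GENCODE M21, which named 14808 of 14864 identifiers. As strand is not stated, overlapping exons cannot be assigned to 1 gene, which touches 50 of the 170 solute carrier genes, 29 of them through a gene that is in the table.

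Values were put on the log2(value + 1) scale and tested two-sided with limma 3.58.1 under R 4.3.3 (lmFit, eBayes with trend), with genotype only, over 14855 genes with a mean of at least 10, and Benjamini-Hochberg adjustment over all of them at 0.05. The log2 scale with a pseudocount of 1 understates the change of low genes. The pipeline was tested on simulated data. Alternatives were edgeR 4.0.16 quasi-likelihood and DESeq2 1.42.0 on recovered reads, pseudocounts of 0.5 and 5, other filters, robust moderation, other scalings, a replicate block and leaving out each library. Leaving out both libraries with high erythroid markers was chosen after seeing the data.

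The genes and lists were chosen with earlier results of these data known. Named by rule were the genes past the threshold, Slc12a5, Slc5a5, the highest gene of each class, and listed genes past the threshold. The other solute carrier genes named, the neighbours and the genes of large spread were chosen after their values were seen. For Slc5a3, Slc14a1, Slc22a15, Slc40a1 and Slc41a1, the alternative settings quoted are ones in which the gene passed, and the others are not given. RefSeq windows were found for 132 of the 170 genes and 10 of the 15 past the threshold. A search of these windows for short factor motifs was also made and is not reported. A gene past the threshold is in the counts but not reported here by name.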

Additional observations from a re-analysis of the deposited data

How the results depend on the processing

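The count of solute carrier genes that rose was 4 and the count that fell was 11. With a mean of at least 50, 2 rose, since the filter removed Slc5a5 and Slc22a3. Leaving out 1 library at a time gave 2 to 8 that rose and 3 to 12 that fell. Without WT replicate 1, 2 rose and 4 fell. Without WT replicate 3, 3 rose and 3 fell. Without cKO replicate 3, 2 rose and 4 fell, and without cKO replicate 2, 8 rose and 12 fell. Over all genes the calls then numbered 497 to 1730 instead of 1494. The cause was not tested. In every other setting the counts were 3 to 5 and 9 to 15.

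Whether the replicate numbers pair the libraries could not be decided with 3 libraries per group. Same-number correlations of deviations were -0.07, -0.02 and 0.15. The highest was 0.20, for WT replicate 2 with cKO replicate 1, the libraries with high erythroid markers. With the replicate number as a block, 5 rose and 15 fell, and the calls over all genes numbered 1551 instead of 1494.

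Among the 38 solute carrier genes followed singly through the alternatives, the sign changed for 3, none of them past the threshold in any. Slc28a2 stood at 0.00996 after quantile normalisation and between -0.0306 and 0.0474 with a library left out. With a library left out Slc12a2 ran from -0.103 to 0.0410 and Slc4a1 from -0.88 to 0.81. With 3 libraries per group the precision is limited, and 101 of 170 genes had a 95% interval inside ±0.5.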
